A study of Homo sapiens with 61 samples.

Results

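In U2OS cells, a human osteosarcoma line, 10225 short stretches of the autosomes were covered by XPC peaks in nearly all irradiated wild-type (WT) libraries and in at most 1 of the unirradiated ones. Sites were chosen by the position of deposited XPC peaks in the 10 WT lists. A base counted when it lay under a peak in 5 or more of the 6 XPC lists made 1 h or 3 h after UV-C light and in at most 1 of the 4 lists made without UV. Adjacent bases were joined, and intervals of 200 bp or more on chromosomes 1 to 22 were kept. The 10225 sites spanned 3813 kb, out of 1368844 merged regions that lay under a peak of any WT XPC list. They were compared with the 11378 sites that the same rule gave in cells without ASH1L (5 or more of 6 irradiated lists, at most 1 of 3 unirradiated lists).

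The study mapped XPC and H3K4me3 by chromatin immunoprecipitation and sequencing, and the values here come from 37 deposited peak lists, 19 for XPC and 18 for H3K4me3, among 61 samples. WT U2OS cells and ASH1L-/- U2OS cells were either left without UV or exposed to 20 J/m2 of UV-C and collected at 1 h or 3 h. There were 3 libraries for each antibody, genotype and time, with 1 more for XPC in unirradiated WT cells. The ASH1L-/- cells carry CRISPR/Cas9 deletions in exon 2 and in exons 11 and 12, come from an isolated colony, and were not compared here with a second clone. XPC peaks were called against the immunoprecipitate of XPC-/- cells and H3K4me3 peaks against input DNA. By the study's methods the control was the corresponding pool of 2 XPC-/- samples, so XPC lists of both genotypes share control reads, while lists of different times appear to have different controls. A signal shared between genotypes, or a change between times that both show, therefore cannot be told apart from a feature of those controls.

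XPC is the protein that recognises distorted DNA and starts global-genome nucleotide excision repair, the pathway that removes UV photoproducts from transcribed and untranscribed DNA alike. ASH1L is a histone methyltransferase, and H3K4me3, trimethylation of lysine 4 of histone H3, marks the promoters of active genes. UV-C joins neighbouring pyrimidines, most often a pair of thymines, into dimers.

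DNA of 6 sites is shown as examples of base composition among long and recurrent members, from intronic DNA with few CpG dinucleotides to a CpG-rich promoter. Each line is the reference sequence of hg38, plus strand, 5′ to 3′, from the middle of the site or, for the shorter chromosome 17 site, its whole length, with every CpG in capitals. The DAPK2 (chr15:64050792-64051091) and VAV2 (chr9:133979932-133980231) windows are intronic. The windows named chr22 (chr22:20193232-20193531) and chr17 (chr17:60004900-60005182) lie outside protein-coding genes. The MOB3B (chr9:27528316-27528615) and SLC35E4 (chr22:30634557-30634856) windows lie within 2 kb of a start site and outside exons.
DAPK2: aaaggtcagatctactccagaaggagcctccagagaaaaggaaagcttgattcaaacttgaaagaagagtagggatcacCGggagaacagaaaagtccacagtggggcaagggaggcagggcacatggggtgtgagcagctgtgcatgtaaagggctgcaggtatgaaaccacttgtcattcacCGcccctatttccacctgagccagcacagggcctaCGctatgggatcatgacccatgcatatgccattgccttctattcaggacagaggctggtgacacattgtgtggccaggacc
VAV2: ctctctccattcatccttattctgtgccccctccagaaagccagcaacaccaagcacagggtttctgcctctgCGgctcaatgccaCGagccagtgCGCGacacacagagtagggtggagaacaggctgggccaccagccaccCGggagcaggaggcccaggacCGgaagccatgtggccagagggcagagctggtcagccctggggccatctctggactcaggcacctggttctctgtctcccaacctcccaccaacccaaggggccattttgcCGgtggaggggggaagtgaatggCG
chr22: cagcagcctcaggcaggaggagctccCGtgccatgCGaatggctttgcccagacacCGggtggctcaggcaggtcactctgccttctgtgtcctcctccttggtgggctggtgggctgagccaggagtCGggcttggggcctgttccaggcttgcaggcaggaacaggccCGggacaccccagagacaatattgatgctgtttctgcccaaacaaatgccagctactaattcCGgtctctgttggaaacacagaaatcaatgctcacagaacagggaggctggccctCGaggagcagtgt
chr17: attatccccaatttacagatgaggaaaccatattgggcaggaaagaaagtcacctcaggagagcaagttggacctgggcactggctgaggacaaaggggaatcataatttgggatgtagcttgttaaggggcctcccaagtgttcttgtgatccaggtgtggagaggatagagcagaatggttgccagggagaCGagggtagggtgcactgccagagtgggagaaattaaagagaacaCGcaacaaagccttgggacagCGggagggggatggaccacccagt
MOB3B: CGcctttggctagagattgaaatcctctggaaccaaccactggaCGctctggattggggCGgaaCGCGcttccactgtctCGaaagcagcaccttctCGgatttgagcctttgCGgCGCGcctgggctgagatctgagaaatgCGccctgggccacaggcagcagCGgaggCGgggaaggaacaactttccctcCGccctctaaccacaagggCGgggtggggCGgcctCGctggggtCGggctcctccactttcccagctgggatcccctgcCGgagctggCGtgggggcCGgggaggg
SLC35E4: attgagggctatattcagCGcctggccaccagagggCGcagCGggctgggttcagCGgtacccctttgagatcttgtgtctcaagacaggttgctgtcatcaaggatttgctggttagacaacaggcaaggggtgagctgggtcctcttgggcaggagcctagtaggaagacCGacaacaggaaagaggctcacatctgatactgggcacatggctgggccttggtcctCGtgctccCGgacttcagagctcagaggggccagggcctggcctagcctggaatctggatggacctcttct

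The DAPK2 and chr17 windows held 3 CpG each, the chr22 and SLC35E4 windows 7 each, the VAV2 window 8 and the MOB3B window 21. Their GC content ran from 51.6% in chr17 to 65.3% in MOB3B. Runs of pyrimidines, the bases in which UV dimers form, reached 14 bases on one strand or the other in DAPK2.

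The lists that chose the sites set their values, which are given as a description. Over all sites the strongest overlapping peak of an irradiated WT list had a median fold enrichment over the XPC-/- control of 1.85 and a median −log10 p of 1.499, with a highest −log10 p of 4.25. Of these peaks, 96.2% were under a −log10 p of 2, and 8384 of the 10225 sites had no irradiated WT peak at 2 or more. The recurrence therefore rests on weak peaks. Of the 19 XPC lists, 17 held exactly 500000 peaks.

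The median site was 317 bp long, the tenth and ninetieth percentiles were 217 and 593 bp, 158 were 1 kb or longer and the longest was 2915 bp. Just inside the length limit, 1160 sites exceeded it by less than 20 bp, and just outside it 8767 intervals measured 100 bp or more but less than 200 bp. Without a length limit the rule took in 5.75 Mb, or 0.209% of the autosomal bases. Another 20.2 Mb were covered in 4 of 6 irradiated and at most 1 unirradiated list, 4.51 Mb in 5 or more irradiated and 2 unirradiated lists, and 0.231 Mb in all 6 irradiated and no unirradiated list. Over their whole length, 3575 sites were touched by peaks of all 6 irradiated lists and 6650 by 5, while 1800 were touched by no unirradiated list, 7880 by 1 and 545 by 2 or more.

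The number of sites did not depend detectably on the UV labels. When the 10 WT lists were assigned to the irradiated and unirradiated groups in all 210 possible ways, 66 assignments, the true one included, gave as many sites as the true one (exact permutation test, one-sided, p = 0.314, adjusted p = 0.349 over 10 tests). The median assignment gave 7765.5 sites and the range was 1856 to 30448. The highest count arose when the 1 h replicate 2, the 3 h replicate 3 and the unirradiated replicates 2 and 4 stood in for the unirradiated group. For the ASH1L-/- lists, 47 of 84 assignments gave at least the 11378 sites of the true labels (exact permutation test, one-sided, p = 0.560, adjusted p = 0.560), with a median of 12093 and a range of 4781 to 22632. The 2 site numbers cannot be compared directly, since the WT rule used 4 unirradiated lists and the ASH1L-/- rule 3. With 1 unirradiated WT list left out at a time, WT cells had 11594 to 16290 sites. Among peaks with a −log10 p of at least 2, 2 WT sites were left, of 251 bp at chr4:49092727-49092977 and of 957 bp at chr22:11036979-11037935, and 1 ASH1L-/- site. When the sites were found again without 1 list (4 or more of 5 irradiated lists where an irradiated one was left out), that list covered them 2.84 to 6.25 times as much as the autosomes if irradiated (6 lists) and 1.39 to 4.10 times if unirradiated (4 lists), so a list that took no part still covered such sites more than average, and the 2 ranges overlap.

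**Figure D1:**
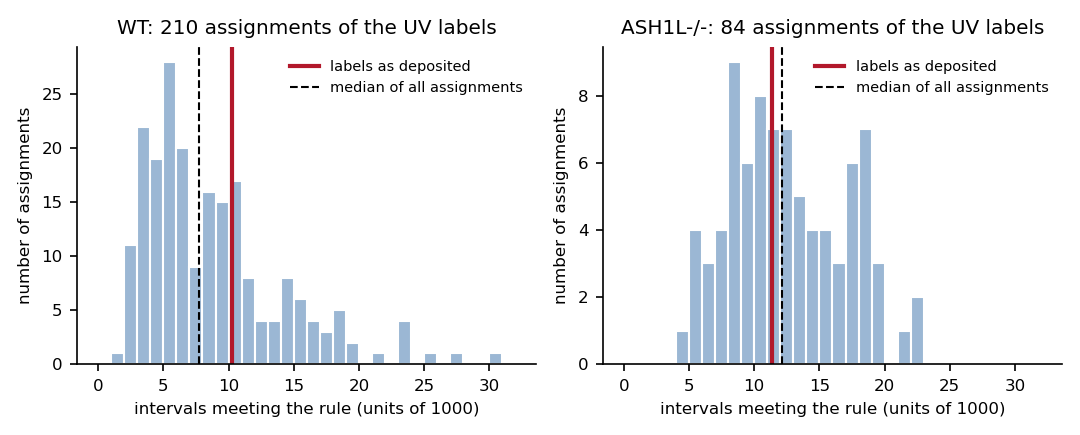
Number of intervals meeting the rule (x axis, in units of 1000) over all assignments of the UV labels (y axis, number of assignments), for the 10 WT lists (left) and the 9 ASH1L-/- lists (right). The solid line is the count with the deposited labels (10225 and 11378) and the dashed line the median of all assignments (7765.5 and 12093); both solid lines lie well inside the spread.

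Sites were rich in GC and CpG. Their bases had a GC content of 54.2%, against 46.7% in flanks 5 to 10 kb away and 41.0% over the autosomes. They held 21.96 CpG per kb, against 15.3 in the flanks and 10.1 over the autosomes. The dinucleotides TT and AA, which give thymine pairs on one strand or the other, were rarer at the sites, with 113 per kb against 160 in the flanks and 196 over the autosomes. The share of dinucleotides formed by 2 pyrimidines on either strand was close to even (57.5%, 56.6% and 55.9%). Sites of ASH1L-/- cells had a GC content of 51.2%. The mirrored sites of WT cells, 66977 intervals covered in 3 or more of 4 unirradiated and at most 1 of 6 irradiated lists, had 46.3%, and 967 intervals covered in 17 or more of all 19 XPC lists had 54.1%. In the same order these 3 sets held 20.25, 14.3 and 29.55 CpG per kb, and 132.7, 161.9 and 117.5 TT and AA per kb. Single sites ranged from 26.8% to 83.95% GC with a median of 53.4%, and 471 (4.61%) held no CpG. The bases under XPC peaks as a whole had a GC content of 42.7 to 51.4% in the irradiated and 41.3 to 48.2% in the unirradiated WT lists. These ranges overlap, and the part of GC content in the choice of sites was not tested.

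Of the 10225 sites, 5110 (49.98%) lay in gene bodies, 4336 (42.4%) in intergenic DNA and 779 (7.62%) in promoters, taken as 2 kb to either side of protein-coding start sites. By bases, promoters made up 7.49% of the sites and 2.56% of the autosomes. They made up 9.87% of ASH1L-/- sites, 7.26% of mirrored sites and 17.9% of the intervals present in nearly all lists. Promoter sites had the highest median GC content, 60.3%, against 53.9% in gene bodies and 52.1% in intergenic DNA. The median site was 40.3 kb from the nearest protein-coding start site, 11.3% had another site within 1 kb, and 37.9% had one within 10 kb.

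The sites were unevenly spread over the chromosomes. Chromosome 15 held 11.3 per Mb, chromosome 8 held 8.68, chromosome 22 held 7.89 and chromosome 10 held 6.45, while chromosome 4 held 0.917 and chromosome 13 held 0.439. Chromosome 15 was again the densest, for ASH1L-/- sites, with 26.5 per Mb, followed by chromosome 22 with 11.4, and chromosome 13 had none. Among 555 bins of 5 Mb the median held 7 sites and 98 held none, while the 10 fullest bins, 1.81% of the autosomes, held 2332 sites (22.8%). The fullest bin, chr8:140000001-145000000, held 681 WT sites, 544 ASH1L-/- sites and 79 mirrored sites. XPC peaks covered on average 50.3% of that bin in irradiated and 33.9% in unirradiated WT lists, and 42.1% and 22.5% in ASH1L-/- lists. The next, chr15:60000001-65000000, held 267 WT, 532 ASH1L-/- and 288 mirrored sites. Across bins the number of WT sites went with the share of a bin under XPC peaks in irradiated WT lists (Spearman's rank correlation 0.931) and with that in unirradiated WT lists (0.902). It also went with the number of mirrored sites (0.868), of ASH1L-/- sites (0.710) and with GC content (0.483). These are descriptions over 555 bins that share libraries, controls and base composition, and copy number was not tested.

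**Figure D2:**
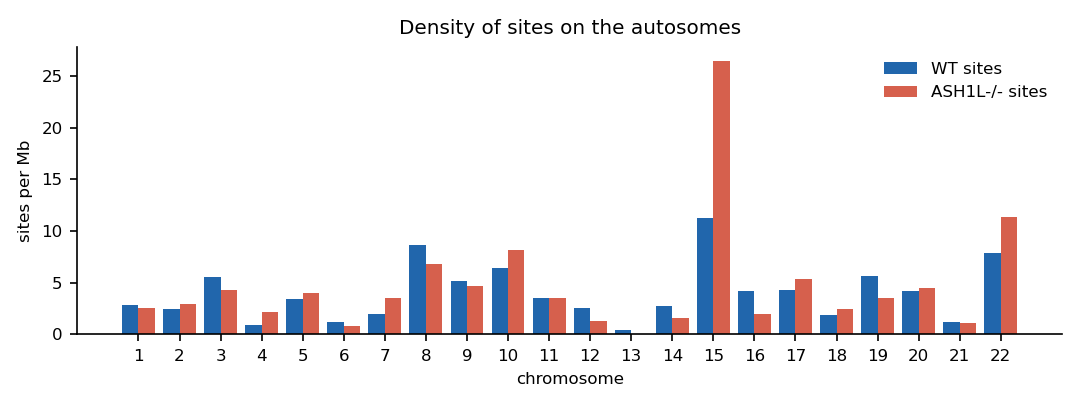
Sites per Mb of autosomal sequence (y axis) on chromosomes 1 to 22 (x axis) in WT (blue) and ASH1L-/- cells (red). Chromosome 15 stands highest in both, with 11.3 and 26.5 per Mb, and chromosome 13 lowest, with 0.439 in WT cells and none in ASH1L-/- cells.

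Of 19111 protein-coding genes, 3257 (17.04%) held a WT site in their promoter or body. Among those with the most sites, named after their counts were seen, TRAPPC9, which codes for a vesicle tethering factor, held 99, the cell adhesion gene TENM4 57, RORA, the gene of a nuclear receptor, 50, TSNARE1 45 and TLN2, which codes for a talin, 35. TRAPPC9 and TSNARE1 lie on the dense end of chromosome 8, RORA and TLN2 on chromosome 15. A longer gene has more room for sites. Per 100 kb of gene TSNARE1 held 23.6 and TRAPPC9 13.6, above TLN2 with 7.71, TENM4 with 7.23 and RORA with 6.75. Of 26 genes of excision repair 5 held a site (19.2%), with 2 in MNAT1 of the TFIIH kinase and 1 each in ERCC8, RPA3, UVSSA and XPC itself. Of 21 genes of histone methylation and the FACT chaperone, 2 held a site (9.52%), with 2 sites in WDR5 and 1 in SETD2. Of 19 targets of p53, 2 held a site (10.5%), FAS and XPC, and of 21 early response genes, 2 (9.52%), with 3 sites at the promoter of MYC and 1 in NR4A1. These shares lie on both sides of the 17.04% of all genes, and the lists are small. ASH1L, DDB1 and DDB2 held none.

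The longest site was chr8:144603750-144606664, 2915 bp overlapping exons and untranslated sequence of ARHGAP39. The 3 libraries at 1 h covered 2915, 2882 and 2040 bp of it, and all 3 at 3 h covered its full length. Without UV, replicate 3 covered 2259 bp, more than the lowest irradiated list, and the others none. In ASH1L-/- cells the irradiated lists covered 694 to 2633 bp and the unirradiated ones 446, 0 and 125 bp, and those groups did not overlap. The site shared 545 bp with ASH1L-/- sites, so the ASH1L-/- rule sets part of that separation. H3K4me3 lay over 192 bp in 1 unirradiated WT list and over 218 to 548 bp in 4 of 6 irradiated ones, and over none of it in any ASH1L-/- list.

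The second longest, chr15:64049887-64051997, 2111 bp in an intron of DAPK2, a death-associated protein kinase gene, was covered over 630, 2111 and 2111 bp at 1 h and 2074, 2111 and 2111 bp at 3 h. Unirradiated replicate 1 covered 206 bp and the other 3 none. The WT rule sets those low unirradiated values. In ASH1L-/- cells the unirradiated lists covered 1600, 1110 and 1021 bp and the irradiated ones 1255 to 2111 bp, and these groups overlapped. Over 717 bp the site was shared with ASH1L-/- sites. No H3K4me3 list held a peak there. In an intron of VAV2, which codes for a guanine nucleotide exchange factor, chr9:133979166-133980997 (1832 bp) was covered over 600 to 1832 bp in the irradiated WT lists and 447, 0, 435 and 0 bp in the unirradiated ones, and in ASH1L-/- cells over 0 to 1635 bp with UV and 1192, 0 and 0 bp without. It met the rule in WT cells alone, shared no base with an ASH1L-/- site and held no H3K4me3.

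Some sites met the rule in both genotypes over much of their length. An intergenic site at chr17:60004900-60005182 shared all of its 283 bp with an ASH1L-/- site. It was covered over 250 to 283 bp in the irradiated WT lists and over 98 bp in 1 unirradiated list, and over 245 to 283 bp in irradiated ASH1L-/- lists and 93 bp in 1 unirradiated list. It had among the highest fold enrichments, 2.001 to 2.71 in the irradiated WT lists and 1.72 to 2.38 in the irradiated ASH1L-/- lists, against 1 unirradiated peak in each genotype (1.79 and 1.57). In both genotypes every irradiated list lay above every unirradiated one, which meeting the rule in both largely sets. An intronic site of CD58, an adhesion molecule of immune recognition, at chr1:116558291-116559149 shared 727 of 859 bp. It was covered over 735 to 859 bp in the irradiated WT lists, over its full length in unirradiated replicate 1 and not at all in the other 3. In ASH1L-/- cells it was covered over 564 to 859 bp with UV and over 326, 152 and 0 bp without, and those groups did not overlap. The ASH1L-/- rule, which the shared bases met, largely sets that separation too. Neither site held H3K4me3 in any of the 18 lists.

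The 5 sites of highest mean fold enrichment in the irradiated WT lists were short, 203 to 373 bp. At chr15:56048538-56048740, intergenic and 54.9 kb from the start of NEDD4, a ubiquitin ligase gene, the fold enrichment ran from 1.77 to 3.05 with a median of 2.03, and peaks of all 9 ASH1L-/- lists touched it. At chr15:77948980-77949352, also intergenic, it ran from 1.66 to 2.68, no unirradiated WT list touched it, and 4 irradiated and 1 unirradiated ASH1L-/- lists did. At chr1:16642782-16643063, within the pseudogene CROCCP2, it ran from 1.85 to 2.86, and 129 of 282 bp gained H3K4me3 in WT cells. In ASH1L-/- cells 53, 71 and 282 bp of that site carried it without UV, and 3 bp gained and 71 bp lost it. An intronic site of PCDH15, a protocadherin gene, at chr10:55601990-55602198 ran from 1.73 to 2.49 and carried H3K4me3 over all 209 bp in unirradiated WT cells. Even these highest values stayed near 2-fold in the median.

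At promoters, the longest sites away from chromosome 8 spanned the start sites of VENTX (1580 bp), CERS5 (1382 bp) and ADAM11 (1313 bp). The CERS5 site, at the start of a ceramide synthase gene (chr12:50166445-50167826), carried H3K4me3 over 865 to 1066 bp in unirradiated WT lists and 982 to 1193 bp in irradiated ones, and over 923 to 1001 bp and 912 to 1209 bp in ASH1L-/- cells. The ADAM11 site (chr17:44758570-44759882) carried it over 930 to 1146 bp and 1203 to 1313 bp in WT cells and 1056 to 1219 bp and 1202 to 1313 bp in ASH1L-/- cells. Only the WT lists at ADAM11 were separate. The VENTX (chr10:133236754-133238333) and MOB3B (chr9:27527900-27529031) sites held no base with H3K4me3 in 2 or more lists of a WT group.

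The ASH1L-/- XPC lists had no part in choosing the WT sites and show how far the same DNA lay under XPC peaks without ASH1L. They covered 36.3, 25.1 and 21.1% of the site bases without UV, 41.2, 46.4 and 36.3% at 1 h, and 31.7, 67.5 and 48.0% at 3 h. The 3 h replicate 1 list, which is shorter than the others, lies below the highest unirradiated list, so the groups overlap (difference 17.7 percentage points, exact permutation test, two-sided, p = 0.0714, adjusted p = 0.0893). The lists also differ in how much of the autosomes they cover, from 5.99 to 16.7%. Divided by that share, the sites were covered 2.65, 2.19 and 2.003 times as much as the autosomes without UV, 3.69, 5.32 and 3.74 times at 1 h, and 5.29, 4.04 and 4.54 times at 3 h. Every irradiated list was above every unirradiated one, by 1.94-fold on average (log2 0.95, exact permutation p = 0.0119, the smallest that 84 assignments allow, adjusted p = 0.0238). Over the same 5 Mb bins the log2 difference was 0.71, over flanks 0.68 and without chromosome 8 0.85 (exact permutation p = 0.0119 each). At the mirrored WT sites the same lists went the other way (log2 −0.68, exact permutation p = 0.0119, adjusted p = 0.0179).

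Conversely, WT lists covered ASH1L-/- sites more after UV. The WT lists averaged 47.0% of ASH1L-/- site bases with UV and 32.5% without (difference 14.5 points, exact permutation p = 0.0619, adjusted p = 0.0884), or as fold over autosomes 4.80 ± 1.11 and 2.47 ± 0.776 (mean ± SD, n = 6 and 4, log2 0.99, exact permutation p = 0.00476, adjusted p = 0.0238). By the rule itself, 885 WT sites (8.66%) touched an ASH1L-/- site, as did 7.78% of ASH1L-/- sites a WT site, and 7.196% of WT site bases met the ASH1L-/- rule against 0.23% of all autosomal bases. Of the WT sites, 1018 were touched by all 6 irradiated ASH1L-/- lists, 131 of them by no unirradiated one. No irradiated ASH1L-/- list touched 367, of which 2 were touched by all 3 unirradiated ones, and 246 were touched by none of the 9. Such counts were not made for other regions, so whether these are unusual was not tested. These values rest on controls that both genotypes share and that appear to differ between times, so neither the likeness nor the rise after UV in both can be told apart from that.

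H3K4me3 was measured in other libraries than XPC, with other controls, and its lists had no part in the rule. The sites were still chosen by a UV contrast in the same cell line. Whether GC content or copy number acts on both measures was not tested. In WT cells the mark covered 6.80 to 9.66% of the site bases without UV and 11.6 to 15.8% after it, while autosomal coverage was 2.48 to 3.31% and 3.45 to 4.70%. As fold over the autosomes the sites held 2.92, 2.49 and 2.92 without UV, 3.62, 3.24 and 2.93 at 1 h, and 3.47, 3.54 and 3.35 at 3 h. Every irradiated list was above every unirradiated one, the lowest at 1 h only just, and the mean rose 1.21-fold (log2 0.28, exact permutation test, two-sided, p = 0.0119, adjusted p = 0.0238).

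In ASH1L-/- cells the relative level fell. The sites held 3.19, 3.26 and 3.23 times the autosomal coverage without UV, 2.99, 2.34 and 2.52 at 1 h, and 2.23, 2.41 and 2.202 at 3 h (0.755-fold, log2 −0.41, exact permutation p = 0.0119, adjusted p = 0.0238). All 6 irradiated lists were below the 3 unirradiated ones. In absolute terms the mark covered 8.59 to 10.5% of the site bases without UV and 7.02 to 8.81% after, and these ranges overlap. Autosomal coverage was 2.635 to 3.255% without UV and 2.80 to 3.80% after it. The difference between the changes of the 2 genotypes was 0.68 on the log2 scale (permutation test exchanging genotypes within times, all 8000 exchanges, p = 0.0005, adjusted p = 0.005). Over both irradiated and unirradiated lists the WT level was 1.18-fold that of ASH1L-/- cells, which did not pass after adjustment (permutation p = 0.045, adjusted p = 0.075).

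**Figure D3:**
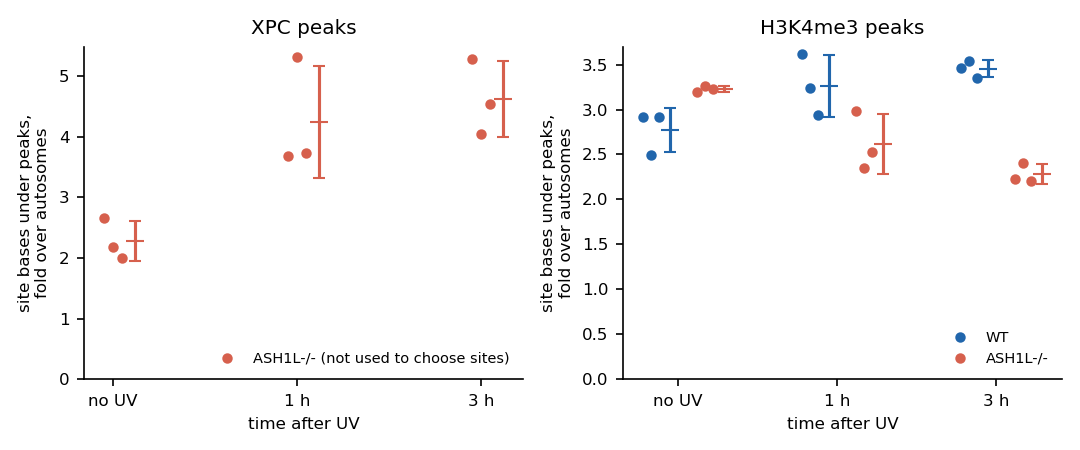
Share of the WT site bases under peaks, divided by the share of the autosomes under peaks (y axis, fold), by time after UV (x axis), for XPC lists of ASH1L-/- cells (left) and for H3K4me3 lists of WT (blue) and ASH1L-/- cells (red, right). Points are lists and bars are mean ± SD (n = 3); XPC in ASH1L-/- cells went from 2.003 to 2.65 without UV to 3.69 to 5.32 after it, and H3K4me3 rose in WT and fell in ASH1L-/- cells.

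Part of the H3K4me3 difference was regional. Divided by flanks 5 to 10 kb away in place of the autosomes, the change was 0.11 in WT (exact permutation p = 0.0238), −0.21 in ASH1L-/- cells (p = 0.0119) and the difference 0.32 (permutation p = 0.0005). In WT cells the mean share of bases under the mark was higher after UV across the flanks as well as at the centres, as the plot by distance shows. Without chromosome 8 the difference was 0.49 over 8969 sites (permutation p = 0.0005). It was 0.50 in 3253 sites of under 50% GC, 1.12 in 4728 sites of 50 to 60% GC (permutation p = 0.00025) and 0.25 in 2244 sites of 60% GC or more, where it did not pass (permutation p = 0.271). With H3K4me3 peaks of at least 5-fold enrichment the difference was 0.37 (permutation p = 0.0225), while neither genotype's own change passed (WT 0.16, exact permutation p = 0.0595; ASH1L-/- −0.21, p = 0.107).

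**Figure D4:**
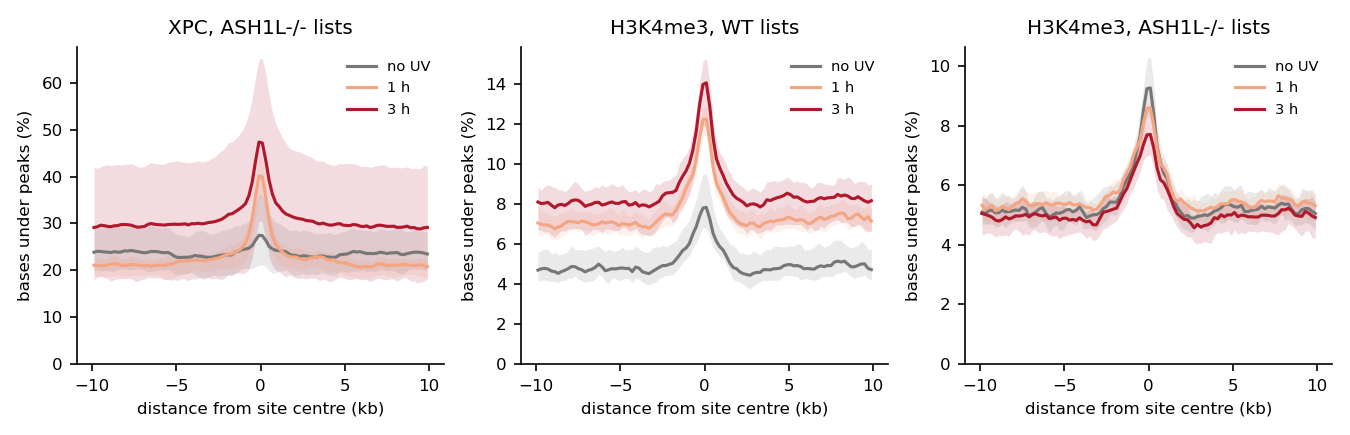
Share of bases under peaks (y axis, %) by distance from the centre of the WT sites (x axis, kb), for XPC in ASH1L-/- cells and H3K4me3 in WT and ASH1L-/- cells, without UV (grey), at 1 h (orange) and 3 h (red). Lines are means of 3 lists and bands span the lowest to the highest list; in WT cells H3K4me3 lies higher after UV at the centre and across the flanks, and in ASH1L-/- cells the centre is highest without UV.

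The difference between genotypes was larger at these sites than at other XPC-defined intervals. At ASH1L-/- sites it was 0.19 (permutation p = 0.0983), at mirrored WT sites −0.04 (p = 0.518) and at intervals in nearly all lists 0.07 (p = 0.563), none of which passed. The WT sites exceeded them by 0.49 (permutation p = 0.00075, adjusted p = 0.0045 over 30 tests), 0.73 (permutation p = 0.00025, the smallest possible, adjusted p = 0.0025) and 0.61 (permutation p = 0.0005, adjusted p = 0.00375). Over flanks the excess was 0.35, 0.40 and 0.43 (adjusted permutation p = 0.0025, 0.0025 and 0.0138). The sets were not matched, with a GC content of 54.2% at WT, 51.2% at ASH1L-/- and 46.3% at mirrored sites. Intervals in nearly all lists had 54.1%, with promoters making up 17.9% of their bases against 7.49% at WT sites. The bin chr8:140000001-145000000 held 681 WT, 544 ASH1L-/- and 79 mirrored sites. The comparison of sets was not repeated without chromosome 8 or at equal GC content.

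The genotypes differed at gene body and intergenic sites, and no difference passed at promoter sites. At the 779 promoter sites H3K4me3 was 12.8 to 16.3 times the autosomal coverage in unirradiated and 9.62 to 12.7 times in irradiated WT lists, and 12.4 to 14.5 and 10.7 to 16.1 times in ASH1L-/- lists. In WT cells the relative level at promoter sites fell (log2 −0.35, 0.787-fold, exact permutation p = 0.0238, adjusted p = 0.0313 over 21 tests), opposite to the sites as a whole. The share of promoter site bases under the mark did not fall in WT cells. It was 36.9 to 42.3% without UV and 42.6 to 45.2% after it, while autosomal coverage rose as well. In ASH1L-/- cells the groups overlapped (log2 −0.11, exact permutation p = 0.417), and the changes did not differ past the threshold (difference of changes −0.23, permutation p = 0.170, adjusted p = 0.199). Set against all promoter windows in place of all autosomes, promoter sites were at 1.01 to 1.04 times in WT and 0.953 to 1.01 times in ASH1L-/- lists, and neither change passed (exact permutation p = 0.702 and 0.131).

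At the 5110 gene body sites the fold over autosomes was 1.20 to 1.68 without UV and 1.87 to 2.36 after UV in WT cells, and 1.75 to 1.83 and 1.12 to 1.68 in ASH1L-/- cells. Neither pair of ranges overlapped. The changes were 0.61 and −0.48 (exact permutation p = 0.0119 each, adjusted p = 0.0179), a difference of 1.09 (permutation p = 0.00025, adjusted p = 0.00175).

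At the 4336 intergenic sites the folds were 1.90 to 2.49 and 2.84 to 3.54 in WT cells and 2.81 to 3.12 and 1.65 to 2.03 in ASH1L-/- cells, a difference of changes of 1.26 (permutation p = 0.00025, adjusted p = 0.00175). Set against the autosomal bases of the same class, the difference was 1.06 in gene bodies and 1.02 in intergenic DNA (permutation p = 0.00025 and 0.0005, adjusted p = 0.00175 and 0.00263). At the 681 sites of chr8:140000001-145000000 it was 1.67 (permutation p = 0.00275, adjusted p = 0.0116).

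**Figure D5:**
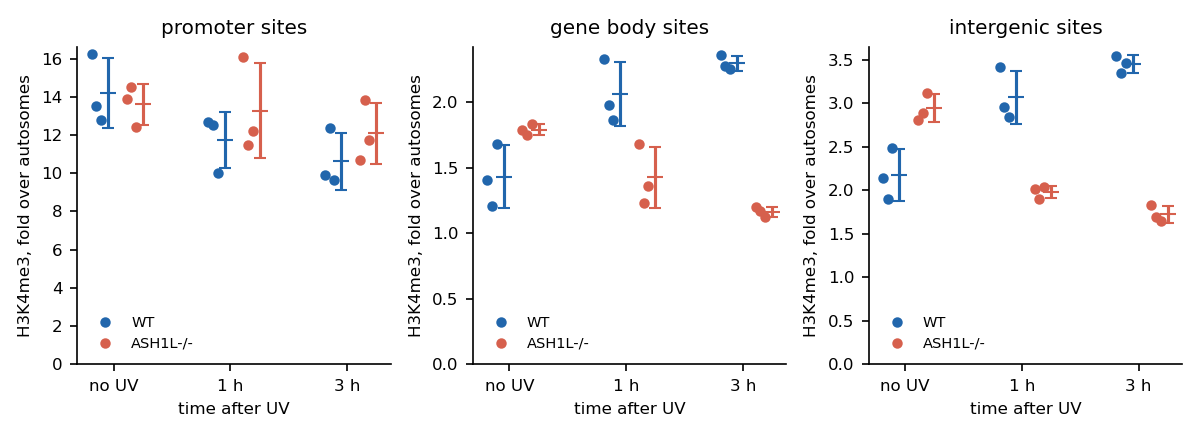
H3K4me3 at WT sites as fold over the autosomes (y axis) by time after UV (x axis), for promoter, gene body and intergenic sites, in WT (blue) and ASH1L-/- cells (red). Points are lists and bars are mean ± SD (n = 3); at gene body and intergenic sites WT lists lie higher after UV and ASH1L-/- lists lower, and at promoter sites the genotypes overlap.

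Counted base by base, 8.50% of the WT site bases gained H3K4me3 after UV in WT cells (2 or more of 3 lists at 1 h or 3 h and fewer than 2 without UV), against 2.09% of all autosomal bases. Without ASH1L 2.17% gained it, against 1.35%. The mark was lost over 3.02% of site bases in ASH1L-/- cells, against 0.562% of autosomal bases, and over 0.472% in WT cells, against 0.282%. The gains in WT cells and the losses in ASH1L-/- cells stood furthest above the autosomal shares. Other XPC-defined intervals also exceeded these shares. At ASH1L-/- sites the WT gain covered 6.35% of bases and the ASH1L-/- loss 2.23%, and at mirrored sites 4.73% and 1.29%. Before UV the mark was already present over 7.16% of site bases in WT and 8.74% in ASH1L-/- cells, against 2.48% and 2.62% of the autosomes.

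In all, 1386 sites (13.6%) touched a WT gain, as did 11.7% of ASH1L-/- sites and 10.2% of mirrored sites. The share was 10.5% of gene body sites, 16.8% of intergenic sites and 15.4% of promoter sites. Of the 1386, 305 lay on chromosome 8, which held 1256 (12.3%) of all sites. A gain in ASH1L-/- cells touched 584 sites (5.71%), and 6.83% of ASH1L-/- sites and 7.49% of mirrored sites. Of the 1386 sites with a WT gain, 446 also touched a gain in ASH1L-/- cells. A loss in WT cells touched 1.65% of sites, and 1.43% of ASH1L-/- sites and 2.16% of mirrored sites. A loss in ASH1L-/- cells touched 658 sites (6.44%), and 5.47% of ASH1L-/- sites and 3.81% of mirrored sites. The fullest example among the named sites was an intergenic site at chr8:141878257-141880026. Its 1770 bp all gained the mark in WT cells, and 478 bp of it lost the mark in ASH1L-/- cells. The mark covered 0, 0 and 1035 bp of it in unirradiated WT lists, 906, 62 and 275 bp at 1 h and 1566, 1415 and 1770 bp at 3 h, so the 1 h lists overlapped the unirradiated ones and the 3 h lists lay above them. Without ASH1L it covered 347, 747 and 1097 bp without UV and 0 to 369 bp with UV. In MROH5 (chr8:141479262-141480780) 1201 of 1519 bp of an intronic site gained it in WT cells and none in ASH1L-/- cells. Most sites touched no gain, and the long sites of DAPK2, VAV2 and GNB1L (chr22:19841923-19843727) held none of the mark in any of the 18 lists.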

How the data were processed

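Each deposited list gives 1 library's peaks with start and end positions (other), fold enrichment over control (a ratio), −log10 p and −log10 q, as the authors' MACS2 2.2.7.1 wrote them; coverage and read depth were not used. Per the labels and the submitters' notes, reads were trimmed (Trim Galore 0.6.5), aligned to hg38 (BWA 0.7.17-r1188) and filtered (bedtools 2.29.2, Picard, SAMtools 1.7). All deposited XPC peaks were used, including those weaker than the study's threshold. Peak heights are 1 library against its control and carry no replicate error, so the spread was taken over lists, which the labels call biological replicates.

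Sites were found from base coverage with Python 3.11.15, NumPy 2.4.6 and pandas 2.3.3. Genes, start sites and exons came from GENCODE 44. Site coverage per list was divided by the autosomal coverage of that list and compared on the log2 scale by exact permutation over lists, both irradiated times pooled, because 3 lists against 3 cannot give a p under 0.1. Genotypes were exchanged within times. P-values were adjusted by Benjamini and Hochberg within each family, with a threshold of 0.05. The procedure was tested on simulated lists. Comparisons by site class, GC content, flanks, chromosome 8 and other site sets were added after the data were seen. The sites, gene lists and tests were chosen with earlier results of these data known. Named sites were the 10 longest, the 5 with the highest mean fold enrichment, the longest at promoters, and those sharing most with ASH1L-/- sites. The longest sites that gained H3K4me3 in WT cells over 200 bp or more were also named. A selection of all these is described. The MOB3B, SLC35E4 and chromosome 17 windows were added for sequence after their values were seen. Repeat annotation was not used here. Some sites and sequences that this rule named are not reported here.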

Additional observations from a re-analysis of the deposited data

Results flagged for a closer look

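The 4 unirradiated WT XPC lists were examined by 11 measures for a value far from the others, and 1 measure stood out. About 1 in 20 measures would by chance, and the 11 share the same lists. Among the 4 unirradiated WT XPC lists, replicate 1 held 87199 peaks with a −log10 p of at least 2, against 25631, 36135 and 32698 in the others. Without that list the rule gave 16290 sites. Without replicate 2, 3 or 4 it gave 13391, 16215 or 11594, since at most 1 of 3 unirradiated lists is a looser limit than 1 of 4. The change of H3K4me3 after UV at the WT sites differed between WT and ASH1L-/- cells by 0.68 on the log2 scale (permutation test, p = 0.0005, adjusted p = 0.005). As fold over the autosomes, every irradiated list was higher than every unirradiated one in WT cells and lower in ASH1L-/- cells. As a share of site bases the ASH1L-/- lists overlapped, with 8.59 to 10.5% without UV and 7.02 to 8.81% after it.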

How the results depend on the processing

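The rule's settings moved the number of WT and ASH1L-/- sites by over 1.5 times. With all 6 irradiated lists required there were 1339 and 1536, with 4 or more 46710 and 52423, and with no unirradiated list 3397 and 4008. A minimum length of 100 bp gave 18992 and 20349, and 500 bp 1719 and 2083. Peaks with a −log10 p of at least 2 gave 2 and 1, with a −log10 q of at least 1.3 0 and 0, and the strongest peaks up to the number in the shortest list 5203 and 5801. Leaving out 1 list, with 4 or more of 5 required where it was irradiated, gave 11594 to 27947 WT and 16373 to 31662 ASH1L-/- sites. Under no alternative did the true labels give more sites than other assignments at p under 0.05 (permutation p = 0.19 to 1 in WT, 0.41 to 1 in ASH1L-/-). With peaks of −log10 p of at least 2 too few sites were left for the tests of coverage, which were not run.

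The unscaled XPC difference of ASH1L-/- lists at WT sites passed (unadjusted) as sites touched (18.7 points), at sites of 500 bp or more (22.1) and at sites in 6 irradiated and 0 unirradiated lists (28.3), and that of WT lists at ASH1L-/- sites likewise (16.2, 18.4 and 25.1). Leaving out 1 list gave 13.2 to 22.1 points, none past the threshold, for the former and 9.03 to 18.5, of which 2 of 10 passed, for the latter. The scaled XPC change at WT sites was 0.88 at 1 h alone and 1.02 at 3 h alone, where 3 lists against 3 cannot pass (exact permutation p = 0.1), and 0.86 to 1.07 without 1 list. At ASH1L-/- sites it was 0.76 to 1.13 without 1 list.

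The H3K4me3 change in WT no longer passed as sites touched (0.15), at sites of 60% GC or more (0.13) and with peaks of at least 5-fold enrichment (0.16). That in ASH1L-/- cells did not pass at 60% GC or more (−0.11) or at 5-fold enrichment (−0.21), and the difference of the changes did not at 60% GC or more (0.25). Without 1 list these were 0.20 to 0.31, −0.46 to −0.38 and 0.61 to 0.73, all past the threshold. The level of WT over ASH1L-/- was the least stable. It was 0.19 as sites touched, 0.10 over 5 Mb bins, 0.056 over flanks, 0.16 without chromosome 8, 0.29 at 50 to 60% GC, −0.051 under 50% GC, where it reversed, and 0.21 to 0.27 without 1 list, of which 4 of 18 passed. Of 36 correlations between same-numbered lists (−0.74 to 0.81), 17 were over 0.1. Among WT XPC lists all 3 pairs were over 0.1 between no UV and 1 h (0.29 to 0.81) and between 1 h and 3 h (0.22 to 0.54), but not between no UV and 3 h, so numbers were not taken to pair the lists. Blocked by replicate number, the level of WT over ASH1L-/- was 0.23 (permutation p = 0.102) and lost its unadjusted call, and no other call changed (WT site count p = 0.667, WT XPC at ASH1L-/- sites p = 0.037). The causes of these shifts were not tested. The number of peaks per list and the lack of read depth limit what weak peaks can show.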
